A study of Mus musculus with 193 samples.

Results

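Wild-type cells from mouse testes at postnatal day 7 (P7) were divided by how much Id4 RNA they held. The classes were chosen by Id4 itself: cells above 10 RPM, a read count scaled by the total of the cell, formed the Id4-high class and cells at 10 RPM or less the Id4-low class. There were 17 Id4-high cells and 36 Id4-low cells, 53 of the 193 cells of the series. Every cell had been sorted as positive for an Id4-eGFP reporter, so the comparison lies within reporter-positive cells, and no source used here gives the gate. All 53 cells were wild type. A second age, 71 wild-type cells from postnatal day 3 (P3), gave 41 cells above and 30 cells at or below the same limit. Sample titles divide the cells into lettered sets whose meaning is unstated. Set A held 2 Id4-high and 10 Id4-low cells at P7, and set B held 15 Id4-high and 26 Id4-low cells. No source used here gives the strain, the litter or how many animals were used.

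ID4 is an inhibitor of DNA binding. It has a helix-loop-helix domain but no basic region, pairs with E proteins such as those of Tcf3, Tcf4 and Tcf12, and keeps them from binding E-box sequences. In the postnatal testis, the brightest cells of the Id4-eGFP reporter are known to be rich in spermatogonial stem cells, which respond to GDNF through GFRA1 and RET, and dimmer cells include progenitors on the way to differentiation. Retinoic acid starts that differentiation, which is marked by Stra8 and by the receptor gene Kit.

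Each deposited sample was 1 cell and no animal is named, so the cells of P7 count as 1 sample and no test was made. A level is the mean over cells of log2(RPM + 1), a difference is the Id4-high minus the Id4-low level over all cells of a class, and the differences within set A and within set B stand beside it. A gene was called past the fold where its level over all P7 cells was at least 2, its difference at least 1 in size and its sign the same in both sets. All statements describe these cells.

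Id4 (chromosome 13, 48261228 to 48266026 on the plus strand of GRCm38, ENSMUSG00000021379.2) had a lowest value of 10.01, a median of 18.5 and a highest of 66.6 RPM in Id4-high cells, against 0, 2.16 and 8.64 RPM in Id4-low cells. These values made the classes and are not a result. Just inside the limit lay cells at 10.01, 10.2, 10.3 and 10.9 RPM, and just outside it cells at 8.64, 7.30, 6.94 and 6.38 RPM. The limit therefore cuts a continuous range. Between 20 and 247 reads stood behind the Id4 value of an Id4-high cell (median 65), against 0 to 28 (median 6) in an Id4-low cell.

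**Figure D1:**
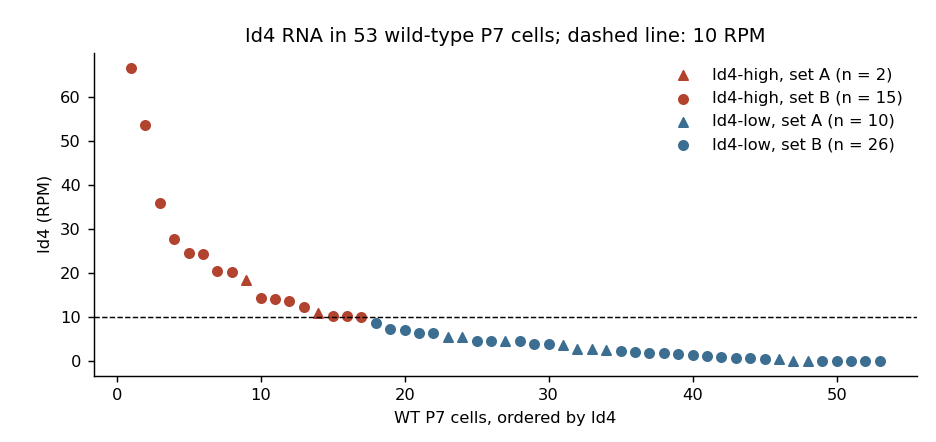
Id4 in RPM in each of the 53 wild-type P7 cells, ordered from highest to lowest, with Id4-high cells in red and Id4-low cells in blue, set A as triangles and set B as circles. The dashed line is the limit of 10 RPM, and the values pass through it without a gap.

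Depth overlapped between the classes, with higher medians of reads in Id4-high cells. Recovered totals had a median of 3505696 reads (1968932 to 4181863) in Id4-high and 3114158 reads (1738640 to 4778782) in Id4-low cells, and reads on genes a median of 556427 against 483089. The median number of genes above 1 RPM was 6530 in Id4-high and 6555.5 in Id4-low cells. ERCC spike-in RNA took a median of 5.09% against 4.70% of the table. Within the sets these medians lay further apart and in opposite directions. In set B they were 6530 genes in Id4-high against 6979.5 in Id4-low cells, and 5.09% against 3.85% ERCC. In set A, with 2 Id4-high cells, they were 6412 against 5913 genes and 6.004% against 7.52% ERCC. Detection was therefore not matched between the classes within a set. Ddx4 and Dazl, which mark germ cells, were above 1 RPM in all 17 Id4-high and all 36 Id4-low cells. Summed markers of 6 other types (leukocyte, erythroid, endothelial, stromal or myoid, Leydig and Sertoli cells) had a median of 0 RPM in both classes, with no Cyp11a1 read in any cell and highest sums of 42.9 RPM in Id4-high and 41.5 RPM in Id4-low cells, both for Leydig markers.

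Stra8 had the lowest and Tcl1 the highest difference of all named genes, and both are described first, together with Dusp6, another gene of the high end. The bases before their RefSeq start sites (GRCm38.p6) are shown because E-boxes (CANNTG, a palindrome) are the sites of the E proteins that ID4 holds back, and AGGTCA, or TGACCT on the other strand, is the half-site that retinoic acid receptors read. Capitals mark these motifs in the 250 bases before the start. The windows are Stra8 at chr6:34920698-34920947, plus strand, Tcl1 at chr12:105222738-105222987, minus strand, and Dusp6 at chr10:99262981-99263230, plus strand.
Stra8: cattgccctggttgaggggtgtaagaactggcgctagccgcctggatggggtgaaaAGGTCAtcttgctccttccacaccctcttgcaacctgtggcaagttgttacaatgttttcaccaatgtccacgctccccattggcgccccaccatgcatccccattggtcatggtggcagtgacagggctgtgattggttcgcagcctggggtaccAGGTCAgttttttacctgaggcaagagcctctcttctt
Tcl1: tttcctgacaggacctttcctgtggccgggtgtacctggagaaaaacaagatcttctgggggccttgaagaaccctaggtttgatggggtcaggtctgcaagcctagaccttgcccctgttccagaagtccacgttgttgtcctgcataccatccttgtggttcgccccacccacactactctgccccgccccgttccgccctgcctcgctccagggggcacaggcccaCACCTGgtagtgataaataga
Dusp6: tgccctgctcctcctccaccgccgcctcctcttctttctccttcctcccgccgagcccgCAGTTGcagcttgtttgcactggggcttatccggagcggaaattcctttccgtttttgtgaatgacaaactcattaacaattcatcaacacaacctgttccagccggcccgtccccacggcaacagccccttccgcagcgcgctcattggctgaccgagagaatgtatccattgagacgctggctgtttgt
The Stra8 window held 2 AGGTCA half-sites and 0 E-boxes. The Tcl1 window held 1 E-box, CACCTG, and 0 half-sites, and the Dusp6 window held 1 E-box, CAGTTG, and 0 half-sites. No E-box overlapped a half-site. Of 32851 RefSeq windows of the same length, 66.2% held an E-box and 14.02% a half-site, so an E-box is common in such windows. Counted by gene, 18729 of 27025 genes held an E-box and 4260 a half-site in at least 1 window. All 12 genes highest in Id4-high cells, named below, had a window in the table, and 4 of them held an E-box and 0 a half-site in at least 1 window. Of the 12 lowest, 7 had a window, 4 with an E-box and 2 with a half-site. A match describes the letters and shows no binding.

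Stra8 (chromosome 6, 34920163 to 34939344, plus strand), a target of retinoic acid needed for meiotic entry, had a lowest value of 0, a median of 0 and a highest of 30.9 RPM in Id4-high cells, against 0, 12.98 and 152 RPM in Id4-low cells. It was above 1 RPM in 5 of 17 Id4-high cells (29.4%, exact 95% interval 10.3% to 56.0%) and in 26 of 36 Id4-low cells (72.2%, 54.8% to 85.8%). These intervals cover counting error among these cells only, not differences between animals, and do not compare the classes. The classes overlap, since cells without Stra8 occur in both, but the cells with much Stra8 were Id4-low. The level was 0.92 ± 1.56 (SD between cells, n = 17) in Id4-high and 3.34 ± 2.53 (n = 36) in Id4-low cells, a difference of -2.43, with -2.73 in set A and -2.54 in set B. Both Id4-high cells of set A had 0 RPM of Stra8. Mean RPM in Id4-high cells was 0.109 times that in Id4-low cells.

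Tcl1 (chromosome 12, 105216750 to 105222793, minus strand), whose product binds and activates AKT kinase, had a lowest value of 3.90, a median of 44.8 and a highest of 148 RPM in Id4-high cells, against 0, 8.39 and 197 RPM in Id4-low cells. It was above 10 RPM in 16 of 17 Id4-high and 17 of 36 Id4-low cells. Tcl1 was thus above 1 RPM in all 17 Id4-high cells, and the Id4-low cells ran from none to the highest value of all. The level was 5.45 ± 1.12 in Id4-high and 3.03 ± 2.25 in Id4-low cells, a difference of 2.41 (2.54 in set A and 2.48 in set B). The set A value rests on 2 Id4-high cells, at 22.5 and 148 RPM. Spearman rank correlation of Tcl1 with Id4 was 0.07 over the 12 cells of set A and 0.67 over the 41 cells of set B.

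Dusp6 (chromosome 10, 99263231 to 99267489, plus strand), a phosphatase gene that ERK signalling switches on and whose product in turn inactivates ERK, had 2.87, 33 and 144 RPM as its lowest, median and highest values in Id4-high cells, against 0, 7.00 and 145 RPM in Id4-low cells. Its level was 5.005 ± 1.37 in Id4-high and 3.12 ± 2.12 in Id4-low cells, a difference of 1.89, with 2.99 in set A and 1.82 in set B. As with Tcl1, the classes share their upper end and differ by the Id4-low cells with little or none.

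**Figure D2:**
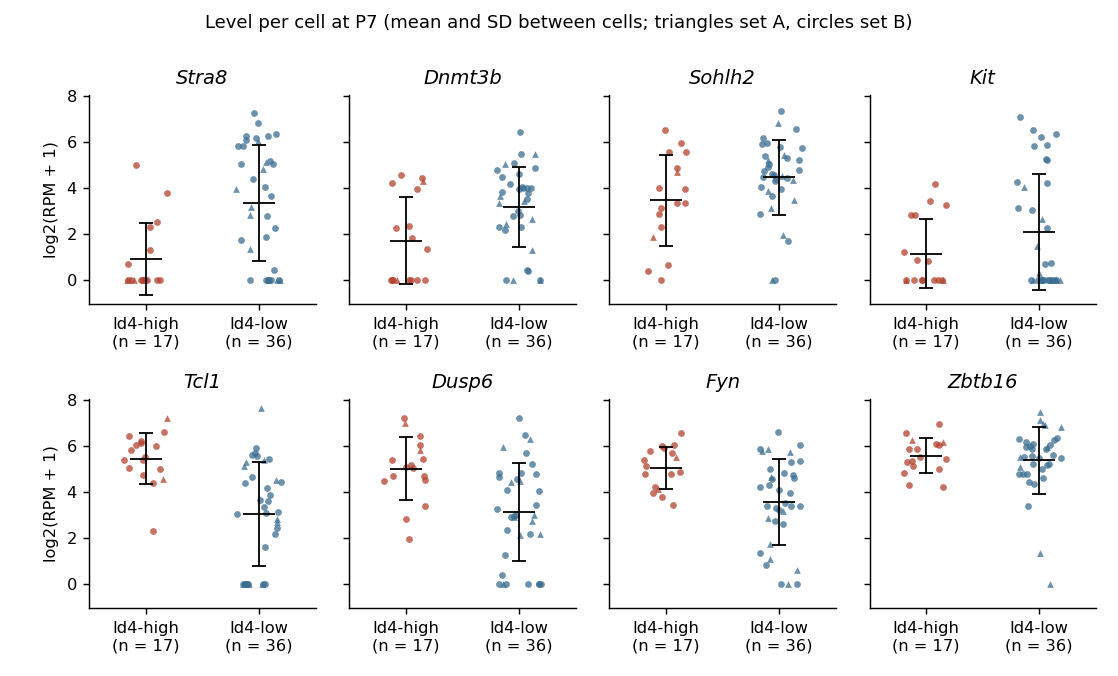
Level per cell, log2(RPM + 1), of 8 genes in Id4-high cells (left, n = 17) and Id4-low cells (right, n = 36), with the mean and SD between cells in black, set A as triangles and set B as circles. Stra8, Dnmt3b, Sohlh2 and Kit have more cells at high levels among Id4-low cells, Tcl1, Dusp6 and Fyn have fewer cells near 0 among Id4-high cells, and Zbtb16 lies at a similar level in both.

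The same genes were followed over 4 bins of Id4, which a single limit hides. Stra8 had levels of 4.73 ± 2.55 in the 12 cells with Id4 at 1 RPM or less, 2.65 ± 2.26 in the 24 cells from 1 to 10 RPM, 1.12 ± 1.92 in the 9 cells from 10 to 20 RPM and 0.69 ± 1.09 in the 8 cells above 20 RPM. Tcl1 ran the other way, with 1.69 ± 1.87, 3.70 ± 2.14, 5.35 ± 0.87 and 5.56 ± 1.40. For both, the step from the first bin to the second was larger than that across the limit, and the 2 bins above 10 RPM lay within 1 SD of each other. Dnmt3b (4.30, 2.62, 1.58 and 1.87) and Kit (3.38, 1.44, 0.87 and 1.44) were highest in the cells with the least Id4 and had no order above 10 RPM. Dusp6 had 2.45, 3.45, 4.76 and 5.28, and Gfra1 3.20, 4.64, 4.20 and 5.30. Zbtb16 stayed between 5.12 and 5.604 in the 4 bins.

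**Figure D3:**
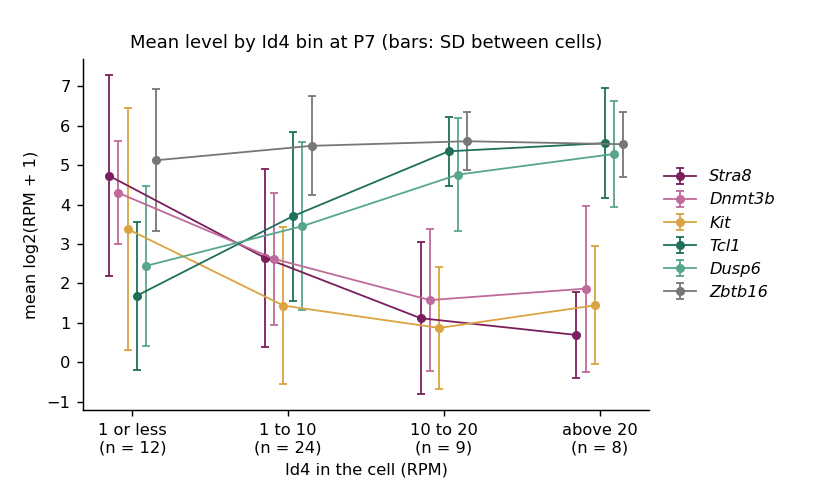
Mean level, log2(RPM + 1), of 6 genes in 4 bins of Id4 at P7 (12, 24, 9 and 8 cells, low to high), with bars for the SD between cells. Stra8, Dnmt3b and Kit are highest where Id4 is at 1 RPM or less, Tcl1 and Dusp6 are lowest there, and Zbtb16 is nearly level.

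Taken cell by cell at 10 RPM, 14 of 17 Id4-high cells had Tcl1 without Stra8, against 12 of 36 Id4-low cells. The opposite state, Stra8 without Tcl1, was found in 0 of 17 Id4-high and 14 of 36 Id4-low cells. Both RNAs were above 10 RPM in 2 Id4-high and 5 Id4-low cells, so the states were not exclusive. Kit and Stra8 were both above 10 RPM in 1 Id4-high and 9 Id4-low cells, and Dnmt3b and Stra8 in 0 Id4-high and 12 Id4-low cells. Tcl1 and Dusp6 were both above 10 RPM in 14 of 17 Id4-high and 8 of 36 Id4-low cells.

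Over all genes, 102 were past the fold and higher in Id4-high cells, which is 1.99% of the 5135 genes with a level of at least 2, and 73 were past it and lower (1.42%). The split depends on the scale: after rescaling each cell to stably detected genes, 72 were higher and 93 lower, and the median of all genes, 0.07 as deposited, became -0.01. The sets carry this count unequally. Without set A, 120 genes were higher and 167 lower, among them 54 of the 102 and 57 of the 73. With a pseudocount of 10 in place of 1, the only genes past the fold were Tcl1, Dusp6 and Stra8. Without set B, where 2 Id4-high cells stand against 10 Id4-low cells, 1095 were higher and 783 lower. Over all genes the 2 sets had little in common: 50.2% of genes had the same sign in both, and the correlation of their differences across genes was 0.02. The 50 genes highest in set B (median 1.36) had a median of 0.44 in set A, 30 of them above 0, and the 50 lowest (median -1.49) had -0.34, 28 of them below 0. Ordered the other way, the 50 highest of set A (3.27) and its 50 lowest (-3.05) both had a median of -0.02 in set B. Stra8, Tcl1 and Dusp6 were past a difference of 1 within each set. So were the others of the 12 highest and 12 lowest genes, named below, except Epb4.1 and Asah1. These genes were picked from the same cells for a large difference with 1 sign in both sets, so their agreement says little.

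After Tcl1 at 2.41 came Tmem132c, a transmembrane protein gene, at 1.98 (2.91 in set A, 1.76 in set B). It had 0, 18.5 and 30.2 RPM as its lowest, median and highest values in Id4-high cells, against 0, 0.853 and 43.5 RPM in Id4-low cells. Dusp6 came next, then Tmc7, of the transmembrane channel-like family, at 1.75 (1.88 and 1.71). The other genes of the 12 highest were Fbxo11, a substrate receptor of an SCF ubiquitin ligase (1.72), the ubiquitin ligase gene G2e3 (1.62), Znfx1 (1.61), Phldb1 (1.59), the corepressor subunit gene Tbl1xr1 (1.54), Vcl, which encodes the adhesion protein vinculin (1.54), Cttnbp2nl (1.52) and Fyn (1.48). Fyn, a Src-family kinase gene, was above 10 RPM in 16 of 17 Id4-high and 19 of 36 Id4-low cells, with medians of 33.4 and 12.5 RPM. With an Id4 limit of 20 in place of 10, Tbl1xr1 was at 0.01. Of these genes, G2e3 (3.38 in set A, 1.07 in set B) and Cttnbp2nl (3.33 and 1.21) had the largest gap between sets, with the pooled value nearer set B.

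At the low end, Trim27, a RING-finger gene of the TRIM family, followed Stra8 at -2.25 (-1.93 in set A, -2.43 in set B). Its lowest, median and highest values were 0, 0.806 and 27.7 RPM in Id4-high cells, against 0, 19.8 and 53.2 RPM in Id4-low cells, and 3 of 17 Id4-high and 23 of 36 Id4-low cells were above 10 RPM. Mtap1b, an older symbol for the microtubule-associated protein gene Map1b, was at -2.09, with 1 of 17 Id4-high and 17 of 36 Id4-low cells above 10 RPM. Next came the p53-induced Trp53inp1 (-1.99), the antigen-trimming peptidase gene Erap1 (-1.90), the cyclin gene Ccnj (-1.84), the cyclic nucleotide phosphodiesterase gene Pde3b (-1.66) and the prostaglandin reductase gene Ptgr2 (-1.61). Epb4.1, which encodes the membrane skeleton protein 4.1 (-1.60), the acid ceramidase gene Asah1 (-1.59), the vitamin C transporter gene Slc23a2 (-1.57) and Ubac2 (-1.56) completed the 12. Asah1 was -4.21 in set A and -0.996 in set B, and Epb4.1 -0.58 and -1.79.

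Listed genes of spermatogonial stem cells were mostly higher in Id4-high cells. This list, like those that follow, was chosen with earlier results of these data known, so its counts are description only. Of 24 listed, 16 had a level of at least 0.5 over P7 cells. Of those, 9 were higher in both sets and 2 lower in both, where 25.6% of all 9412 genes at that level were higher and 24.2% lower in both. The median difference was 0.43 (0.51 in set A and 0.52 in set B), against 0.07 for all genes at a level of at least 2. Tcl1 belongs to this list, as it does to the 12 highest. Egr2, an early growth response factor downstream of GDNF, had medians of 16.5 and 9.11 RPM in Id4-high and Id4-low cells, a difference of 1.14, with 3.39 in set A and 0.81 in set B. Foxc2, a forkhead factor of quiescent stem cells, was above 10 RPM in 6 of 17 Id4-high and 1 of 36 Id4-low cells (1.03), and Eomes, a T-box factor, in 4 of 17 and 0 of 36 (0.87). Tspan8, a surface protein used to enrich stem cells, was at 0.47 (-0.72 in set A and 0.56 in set B). Lhx1 was at 0.40 (0.02 and 0.47), and both genes had medians under 1 RPM in either class. Bcl6b, Egr4, Cd81 and Pou3f1 also differed in sign between the sets. Nanos2 (-0.38) and Itga6 (-0.18) were lower in both sets, and Nanos2 was above 1 RPM in 2 of 17 Id4-high and 5 of 36 Id4-low cells. The level averaged over the list was 3.22 ± 0.51 per cell in the 15 Id4-high and 2.66 ± 0.82 in the 26 Id4-low cells of set B, so the classes overlapped.

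Along the GDNF and FGF pathway, Dusp6 and Fyn differed most, ahead of the receptors. Gfra1, the GDNF co-receptor, had a lowest value of 1.71, a median of 26.3 and a highest of 139 RPM in Id4-high cells, against 0, 18.8 and 111 RPM in Id4-low cells (0.56). Ret, the signalling receptor, had 4.03, 28.6 and 129.5 RPM in Id4-high cells, against 0, 24.6 and 115 RPM in Id4-low cells (0.83, with 0.79 in set A and 1.03 in set B). Both were above 1 RPM in 17 of 17 Id4-high and 32 of 36 Id4-low cells. Fgfr1 was at 0.08 (-0.03 in set A and 0.03 in set B). Fgfr2 was at 0.05 over all cells but lower in both sets (-0.08 and -0.04). Among targets and feedback genes, Etv5, an ETS factor induced by GDNF, had medians of 29.1 and 20.01 RPM in Id4-high and Id4-low cells (1.00, with 2.74 in set A and 0.65 in set B). Spry1, a feedback inhibitor, was at 0.78 and Etv4 at 0.65. The related Spry4 (0.50) and Spry2 (-0.02) differed in sign between the sets. Of 20 genes listed, 18 had a level of at least 0.5, 8 were higher in both sets and 3 lower in both. Among all 9412 genes at that level, 25.6% were higher and 24.2% lower in both. The list median was 0.35 (0.36 in set A, 0.29 in set B). Akt1 (-0.52) and Mycn (-0.47) had the lowest values of the list. Gfra1, Ret and Etv5 are also in the stem cell list.

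Genes of differentiating spermatogonia and early meiosis were mostly lower in Id4-high cells. Of 16 listed, 15 had a level of at least 0.5, with 8 lower in both sets and 1, Uhrf1, higher in both. Among all 9412 genes at that level, 24.2% were lower and 25.6% higher in both. The median was -0.65 in all cells, -0.65 in set A and -0.71 in set B. Dnmt3b, a DNA methyltransferase gene, had 0, 1.52 and 22.4 RPM as its lowest, median and highest values in Id4-high cells, against 0, 11.0005 and 83.7 RPM in Id4-low cells, a difference of -1.47 (-0.59 in set A and -1.70 in set B). Kit had 0, 0 and 16.8 RPM in Id4-high cells, against 0, 0.425 and 132 RPM in Id4-low cells. Kit above 10 RPM was found in 1 of 17 Id4-high and 11 of 36 Id4-low cells, and its difference was -0.94 (-0.85 and -1.27). Sohlh2, a helix-loop-helix factor of differentiation, was above 10 RPM in 8 of 17 Id4-high and 29 of 36 Id4-low cells (-0.99). Crabp1, a retinoic acid binding protein gene, was at -0.98 and Dnmt3a at -0.84. Sohlh1, the partner of Sohlh2, differed in sign between the sets, with 0.89 in set A and -0.88 in set B. Uhrf1, which directs maintenance methylation, was at 0.69, with medians of 44.2 and 33.6 RPM in Id4-high and Id4-low cells. The meiotic genes Dmc1 (0.50) and Sycp1 (0.21) did not share the sign of Stra8 in set B. The differentiating median was 0.00185 when a level of at least 4 was asked for, which leaves out the lower members.

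**Figure D4:**
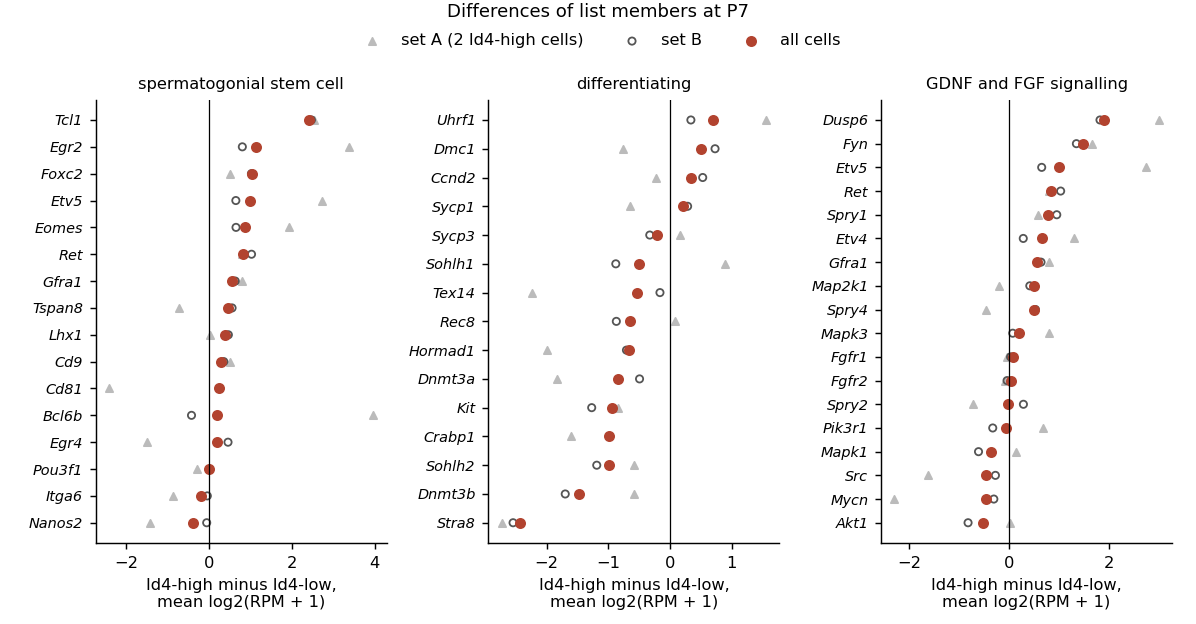
Difference of each member with a level of at least 0.5, Id4-high minus Id4-low, mean log2(RPM + 1), for 3 gene lists. Red points are all P7 cells, open circles set B and grey triangles set A, which has 2 Id4-high cells. Most stem cell genes lie right of 0 and most differentiating genes left of it, and set A scatters most.

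Progenitor genes leaned lower, with 9 of 12 measured members lower and 3 higher over all cells, but the sets differed. Zbtb16, which encodes PLZF, had 17.3, 45.02 and 120.5 RPM in Id4-high cells, against 0, 45.8 and 174 RPM in Id4-low cells (0.20). Lin28a, an RNA-binding protein gene, was at -0.77 (0.41 in set A and -1.01 in set B), and Cdh1, which encodes E-cadherin, at 0.62. In both sets alike, 2 were higher and 4 lower, where 25.6% and 24.2% of all 9412 genes at a level of at least 0.5 were. The median was -0.17 (0.02 in set A and -0.16 in set B). Neurog3, a factor of progenitors, was above 1 RPM in 0 of 17 Id4-high and 1 of 36 Id4-low cells, Rarg in 1 and 3, and Sox3 in 5 and 10. At this depth no difference could be read for these. Rhox10, the homeobox gene after which the study's mutant is named, had medians of 0 and 1.90 RPM in Id4-high and Id4-low cells (-0.42, with 0.66 in set A and -0.62 in set B).

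The partners and relatives of ID4 were examined next. Id1 was above 1 RPM in 1 of 17 Id4-high and 0 of 36 Id4-low cells, and Id2 in 0 and 2. Id3 was above 1 RPM in 0 of 17 Id4-high cells (interval up to 19.5%) and in 8 of 36 Id4-low cells (22.2%, 10.1% to 39.2%), all with at most 4.86 RPM. Both intervals cover counting error among these cells only. Of the E protein genes, Tcf12 had medians of 13.004 and 31.6 RPM in Id4-high and Id4-low cells (-0.56, with -0.31 in set A and -0.58 in set B), Tcf3 was at -0.04 and Tcf4 at -0.13, both with opposite signs in the sets. Smad1, which carries BMP signals, had medians of 10.5 and 3.15 RPM in Id4-high and Id4-low cells (1.14, with 1.55 and 1.02), and the inhibitory Smad7 was at 0.88 (0.61 and 1.01). The receptor gene Bmpr2 was at -0.97 (-1.29 and -0.84) and Bmpr1a at 0.36. Of 11 measured members 3 were higher and 3 lower in both sets (median -0.13), near the 25.6% and 24.2% of all 9412 genes. The 8 measured retinoid genes split evenly as well (median -0.06), with Crabp1 lowest and Dhrs3 (0.50) and Aldh1a2 (0.48) highest.

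Cell cycle RNA moved with the sets. Over the 23 G2 and mitosis genes the median was 0.67 in all cells, above the medians within set A (-0.24) and set B (0.30). Their mean level per cell was 2.64 in the 2 Id4-high and 2.55 in the 10 Id4-low cells of set A, against 5.03 in Id4-high and 4.83 in Id4-low cells of set B. Since 10 of 12 set A cells were Id4-low, pooling places more cells with little mitotic RNA in that class. Bub1 (2.53 in set A and 0.78 in set B), Aurkb (1.31 and 0.61) and Cdk1 (1.01 and 0.60) were higher in both sets. Their pooled differences, 1.17, 1.17 and 1.05, were past the fold. Within set B each stayed under 1, and the pooled value of Cdk1 lay above those of both sets. Of the 23, 6 were higher and 5 lower in both sets, near the 25.6% and 24.2% of all 9412 genes at a level of at least 0.5. The S phase median was 0.15 (0.58 in set A, 0.01 in set B), with Ccne2, a cyclin E gene, at 1.21 and Cdc6 at -0.41. The part of cell cycle differences in the gene counts above was not tested.

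The other lists had medians near 0, with members on both sides. They were -0.12 for 14 glycolysis genes, 0.02 for 26 oxidative phosphorylation genes, 0.10 for 18 translation genes, 0.05 for 15 pan germ cell genes, 0.07 for 12 immediate early and stress genes and 0.04 for 12 genes of p53 and apoptosis. Within the last list Trp53inp1, at -1.99, had the largest difference. Its highest members were Bcl2l1 and Pmaip1. Bcl2l1, which encodes the survival protein BCL-XL, was above 10 RPM in 16 of 17 Id4-high and 20 of 36 Id4-low cells (1.37, with 1.30 and 1.48). Pmaip1, a p53 target that promotes apoptosis, was at 1.33, but at -0.27 in set A and 1.68 in set B. Cox5a, a subunit of cytochrome oxidase, was at 0.62 and Cox5b at -0.26. Star, a Leydig cell marker, was above 1 RPM in 3 of 17 Id4-high and 12 of 36 Id4-low cells and Cd68, a macrophage marker, in 4 and 6. The Leydig marker Cyp11a1 was at 0 RPM in all 53 cells. Of the Sertoli markers, Clu was above 1 RPM in 0 of 17 Id4-high and 3 of 36 Id4-low cells, Wt1 in 0 and 1, and Sox9 in 2 and 3, with a highest value of 9.47 RPM.

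With the same limit at P3, 10 genes were past the fold and higher in Id4-high cells (0.209% of 4790) and 2 lower (0.0418%). Of the 102 genes higher at P7, 40 (39.2%) were higher in both P3 sets, near the 38.4% of all 5135 genes, and 1, Tmc7 (1.03), was past the fold. Of the 73 lower at P7, 8 (10.96%) were lower in both P3 sets, against 13% of all 5135 genes, and 0 past it. Their median P3 differences were 0.12 and 0.10, close to the 0.11 of all genes. Id4 itself, by its choice, differed by 1.77 at P3 and by 2.78 at P7, so the classes lie closer together at P3.

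Stra8 differed by -0.06 at P3, with levels of 2.10 in Id4-high and 2.15 in Id4-low cells, and Tcl1 by -0.00, with 4.19 in both. Dusp6 was at 0.70 (2.31 in set A and 0.22 in set B). Dnmt3b (-0.67) and Kit (-0.50) had the sign of P7 in both P3 sets, as had Etv5 (0.56), Smad7 (0.82) and Pde3b (-0.70). The stem cell median was 0.19 at P3 and that of the differentiating list 0.12. Whether the classes differ more at P7 than at P3 was not tested, as each age is 1 sample.

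**Figure D5:**
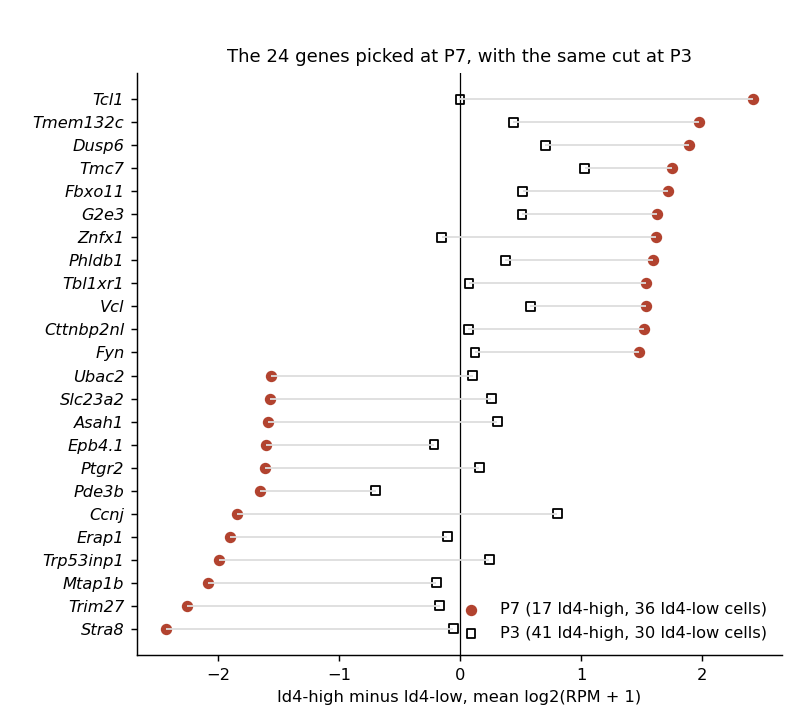
Difference, Id4-high minus Id4-low, mean log2(RPM + 1), of the 12 highest and 12 lowest genes of P7, with filled red points for P7 (17 and 36 cells) and open squares for the same limit at P3 (41 and 30 cells). The genes were picked at P7, and at P3 all but Ccnj, Tmc7, Dusp6 and Pde3b lie within 0.6 of 0.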

How the data were processed

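Per the labels' protocols, cDNA of single Id4-eGFP-positive cells was made by SMARTer chemistry in a C1 microfluidic system (Fluidigm) with ERCC spike-ins added, and Nextera XT libraries followed. STAR 2.3.0 and HTSeq 0.6.1 are named, with the build mm10, in the submitters' processing notes. The deposited values behave as RPM: in each cell every value is a whole multiple of 1 step common to all genes (100% of values, tolerance 0.001 RPM), so whole reads were recovered and no gene length enters. The authors' table is named as TPM, which the plan had assumed. A count test on the reads was not run, since cells are not replicates.

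The table held 19557 genes besides 84 ERCC rows and Rn45s, and all columns matched a sample. Levels, differences and the call past the fold are defined in the report. The plan weighted sets A and B equally unless a set had fewer than 3 cells of a class. Set A had 2 Id4-high cells, so the difference pooled over cells is used. Lists counted members at a level of at least 0.5 and left Id4 out. Named genes are the 12 highest and 12 lowest differences with 1 sign in both sets (without predicted genes and Rik clones), the 2 highest and 2 lowest members of each of 20 lists, and 15 genes used for Id4-eGFP cells. Dnmt3a, Sohlh1, Sohlh2, Foxc2, Eomes, Spry1, Etv4, Fgfr1, Fgfr2, Tcf3, Tcf4, Bmpr1a, Cdk1 and Sycp1 were added after their values were seen. So were Bcl6b, Egr4, Cd81, Pou3f1, Spry2 and Spry4. The limit, the members and the lists were chosen with earlier results of these data known. Intervals are exact (Clopper-Pearson, 95%) and cover counting error only. Positions come from GENCODE M21 (GRCm38) and promoters from RefSeq. The calling step was tested on simulated data. Python 3.11.15, pandas 2.3.3, NumPy 2.4.6 and SciPy 1.17.1 were used.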

Additional observations from a re-analysis of the deposited data

Results flagged for a closer look

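Among the named genes, 4 had opposite directions at the 2 ages in every set: lower in Id4-high cells in both sets at P7 and higher in both sets at P3. Trp53inp1 differed by -1.99 at P7 and 0.24 at P3, Ccnj by -1.84 and 0.80, Ptgr2 by -1.61 and 0.16, and Slc23a2 by -1.57 and 0.26. Of all 5135 genes with a level of at least 2 at P7, 38.4% were higher in both P3 sets, so that direction was common at P3. These differences between the ages were not tested. For all but Ccnj the P3 value within set B was at most 0.07, and the genes had been picked for a low value at P7.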

How the results depend on the processing

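The plan weighted the sets equally. Because set A had 2 Id4-high cells, the pooled value is reported, so pooling is not counted among the alternatives. Equal weighting, added after seeing the data, is 1 of the 15 alternatives run. The 12 highest and 12 lowest genes were picked for 1 sign in both sets, so their kept sign says little. Among them Tbl1xr1 was at 0.01 with an Id4 limit of 20. No paired analysis was possible because each age is 1 sample and no result comes from a test.

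The counts of genes past the fold, higher and lower, were 294 and 236 with equal sets, 325 and 223 with a pseudocount of 0.1, and 2 (Tcl1 and Dusp6) and 1 (Stra8) with a pseudocount of 10. They were 13 and 6 at a level of at least 4, 406 and 439 with cells scaled to 1 sum over genes, 407 and 176 with an Id4 limit of 20, and 1095 and 783 without set B. No set A cell had Id4 above 20 RPM, so that limit asked for the sign of set B only. Leaving out a set likewise asked for the sign of the other set only. The count of higher genes was 188 without the least sequenced 25% of cells. The count of lower genes was 117 at a level of at least 0.5, 167 without set A and 247 from the log2 of mean RPM. With an Id4 limit of 5, 35 of the 102 and 35 of the 73 were called.

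The stem cell median was 0.58 with equal sets, 0.83 and 0.17 with pseudocounts of 0.1 and 10, 0.21 with no demand on level and 0.56 at 4. It was 0.49 scaled to genes, 0.38 rescaled, 0.46 thinned to 50000 reads, 0.70 and 0.45 with Id4 limits of 5 and 20, and 0.56 with the Id4 median of each set. It was 0.56 without set A, 0.50 without set B, 0.43 from mean RPM and 0.39 without the least sequenced 25%. The differentiating median was -0.89 with equal sets, -1.14 and -0.31 with the pseudocounts, -0.59 with no demand on level and 0.00185 at 4. It was -1.03 scaled to genes, -0.60 thinned, -0.40 with a limit of 20, -0.71 without set A, -0.45 from mean RPM and -0.73 without the least sequenced 25%. The GDNF and FGF median was 0.14 with equal sets, 0.68 and 0.10 with the pseudocounts, 0.29 with no demand on level and 0.83 at 4. It was 0.63 scaled to genes, 0.26 rescaled, 0.27 thinned, 0.15 and 0.14 with limits of 5 and 20, 0.23 with the set medians, 0.29 without set A, 0.14 without set B and 0.21 from mean RPM. The progenitor median was 0.0602 with a limit of 20, -0.0236 with the set medians and -0.0034 without set B. The median of G2 and mitosis was 0.15 with equal sets, 1.18 with a limit of 20 and -0.24 without set B.

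Signs turned for the retinoid median (0.15 with the set medians), for pan germ cell genes (-0.0343 scaled to genes, -0.0499 rescaled, -0.0104 thinned), for S phase (-0.0078 with a limit of 5, -0.23 with the set medians), for glycolysis (0.12 at a level of 4, 0.0418 from mean RPM) and for translation (-0.0186 with equal sets). Others lay close to 0 and crossed it too: oxidative phosphorylation in 8 alternatives (-0.08 to 0.18 over all 15), p53 and apoptosis in 6 (-0.26 to 0.21), immediate early and stress in 2 (-0.54 to 0.26), and ID and E proteins in 1 (0.17 without set B). At a level of at least 4 the p53 and apoptosis, retinoid, and ID and E protein lists gave no median. The cause of these shifts was not tested. Values of low genes rest on few reads, and 1 cell of the 2 Id4-high cells of set A can set that set's difference.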
